A study of Mus musculus with 18 samples.

Results

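Transcripts of 10 genes for ELM2-SANT corepressor scaffolds were followed in the testis of mice lacking Zfp541: Mta1, Mta2, Mta3, Rcor1, Rcor2, Rcor3, Mier1, Mier2, Mier3 and Rere. They were chosen by gene symbol from 46418 symbols found in every library, and all 10 were measured in all 18 libraries. The mice were C57BL/6J males, heterozygous (Zfp541+/-, called Het) or homozygous (Zfp541-/-, called KO) for the Zfp541 mutation. Poly(A) RNA came from whole testis at postnatal day 14 (P14), whole testis at P18 and spermatocytes at P18, which makes 6 groups of 3 libraries. Both genotypes of every set carry at least 1 mutant Zfp541 allele, and no wild-type group was analysed here. The design of the mutant allele and the way the spermatocytes were isolated are not given in the sources used here. The libraries are named biological replicates without a statement that each came from a separate animal, so p-values measure the spread between these libraries.

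The ELM2 and SANT domains lie side by side in a family of chromatin proteins, and together they hold and activate the class I histone deacetylases HDAC1 and HDAC2. The scaffold decides which other enzymes travel with the deacetylase. MTA proteins build the NuRD complex, which joins deacetylation to a CHD nucleosome remodeller. RCOR proteins (CoREST) bridge the deacetylase and the histone demethylase KDM1A, also known as LSD1, on nucleosomes. MIER proteins form smaller deacetylase complexes, and RERE is an atrophin-family corepressor of nuclear receptors. ZFP541 is itself an ELM2-SANT protein of male germ cells, so the 10 genes encode its relatives in other deacetylase complexes.

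Levels below are RPKM (P14 testis and spermatocytes) or FPKM (P18 testis), that is, reads or fragments per kilobase of exon scaled to library size, after rescaling between libraries. Each difference is KO minus Het of log2(level + 0.5) with its standard error, tested with limma. A gene was called when its p adjusted over all genes tested was under 0.05. The libraries rested on 9.26 to 21.12 M reads (M, megareads), and Zfp541 was lower in every KO library than in any Het library of its set (for example 39.2, 29.9 and 58.1 in Het against 14.1, 12.5 and 12.8 in KO spermatocytes), with transcript remaining. The 12 pachytene and later spermatocyte markers summed to between 1290 and 3100 in Het spermatocytes and between 165 and 224 in KO spermatocytes, and to between 640 and 1480 against 159 to 172 in P18 testis. In the spermatocyte libraries the 12 Sertoli markers summed to at most 63.7, against at least 679 in whole testis at P18, 6 of 7 Leydig markers were under 1, and so were all 6 endothelial and all 6 erythroid markers. The 12 spermatogonial markers were not depleted there: they summed to between 304 and 381 in Het spermatocytes and between 587 and 660 in KO spermatocytes, against 206 to 256 in P18 Het testis. The 6 myoid markers were not depleted either (66.4 to 174 in Het spermatocytes and 105 to 132 in P18 Het testis). Of 8 macrophage markers, 5 rose in P18 KO testis, as did 3 of 12 Sertoli and 1 of 7 Leydig markers. Of all genes, 5.19% rose there. In KO spermatocytes 3 of the 5 macrophage markers tested rose, beside 18.4% of all genes. Het spermatocyte replicate 3 stood apart: its reads differed from those of replicates 1 and 2 by 42.3 and 46.2 chi-square units per gene, against 11 between these, and it had the highest pachytene sum. In these bulk samples, fewer cells of a type and less RNA per cell cannot be told apart.

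In P18 spermatocytes Rcor3 fell in KO, and Rcor2, Mier1 and Mier2 rose. These 4 of 10 genes passed the test in a comparison in which 37.3% of 15956 genes did (18.4% higher and 18.9% lower), so the share of scaffold genes was near the background. In whole testis at P18, Rcor3 and Mta1 fell, 2 of 10 beside 23.0% of 18348 genes (5.19% higher and 17.8% lower). That split of 953 higher and 3273 lower genes became 2916 and 2773 with median-of-ratios scaling and 2473 and 2860 with values as deposited. None was called in P14 testis, where 0.178% of 17996 genes were called by limma (0.0111% higher and 0.167% lower), 1669 genes had an unadjusted p under 0.05, and voom on reads read back from the values also called none of the 10. The median difference of the 10 genes was 0.04 (P14 testis), −0.02 (P18 testis) and 0.02 (spermatocytes), against 0.02, 0.01 and 0.09 over all genes tested.

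**Figure D1:**
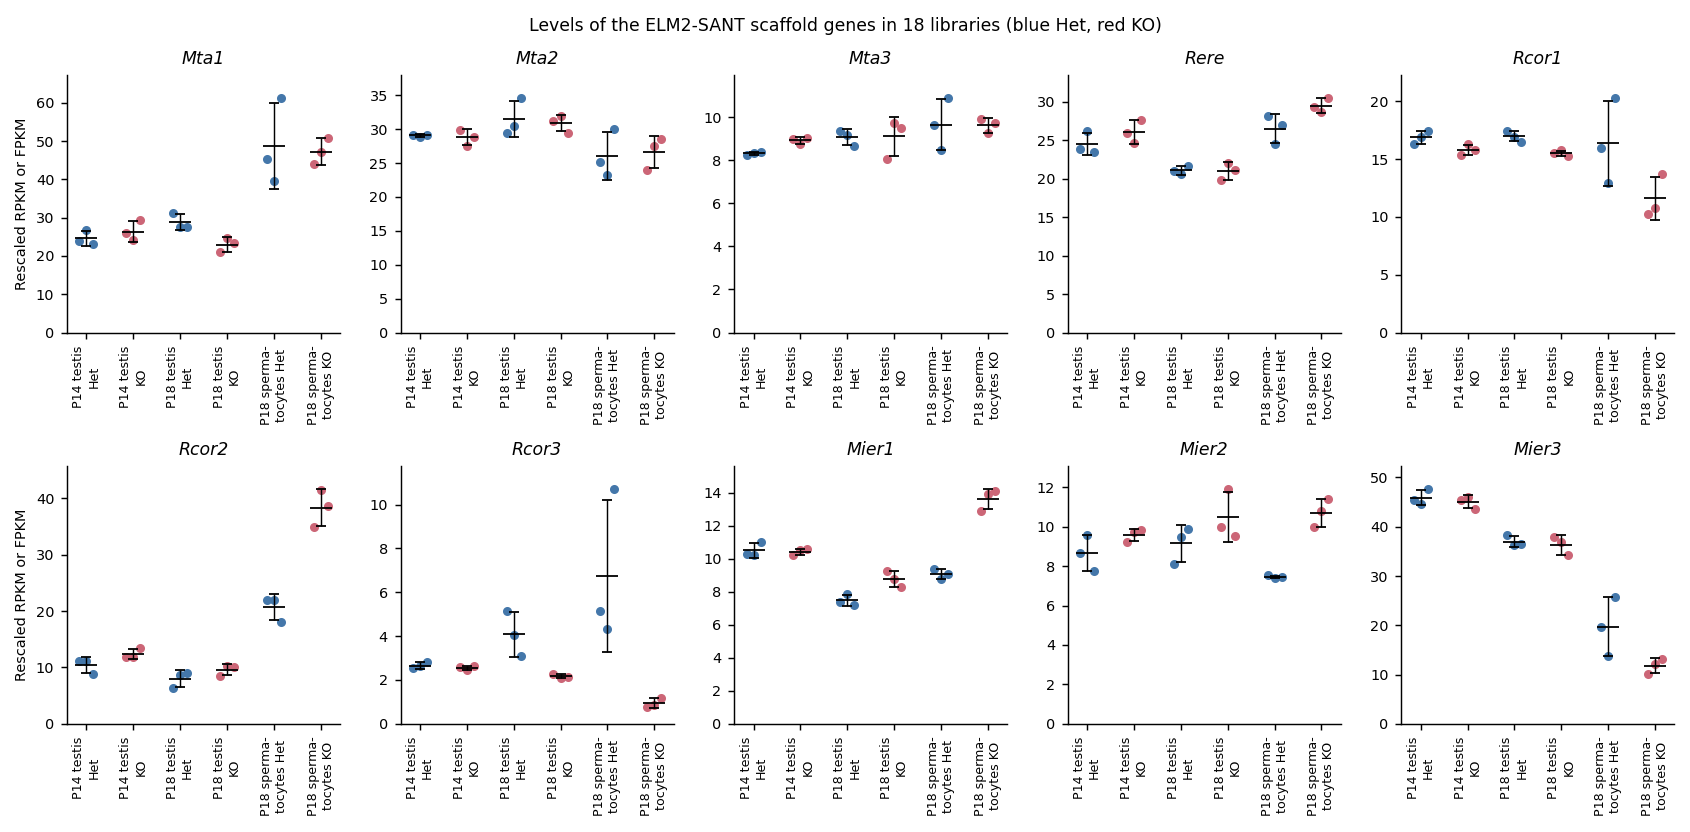
Level of each of the 10 scaffold genes (RPKM or FPKM after rescaling, linear axes from 0) in the 6 groups; points are libraries, and horizontal lines with error lines are means ± SD over 3 libraries. Rcor3 is lowest in KO spermatocytes (0.76 to 1.18), Rcor2 is highest there (34.9 to 41.5), and Mta3 lies between 8.08 and 10.9 in every library.

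Among the CoREST scaffolds, Rcor3 and Rcor2 moved in opposite directions in KO spermatocytes. Their promoters are shown as a description of this pair, and a link between sequence composition and response was not tested. Each runs 5′ to 3′ on the gene's strand from 250 bases before to 50 bases after the annotated start (RefSeq, GRCm38.p6), Rcor3 at chr1:192137991-192138290 on the minus strand and Rcor2 at chr19:7267144-7267443 on the plus strand. Capitals mark every GC box (GGGCGG, or CCGCCC on the other strand) and, in Rcor2, an E-box (CACGTG).
Rcor3: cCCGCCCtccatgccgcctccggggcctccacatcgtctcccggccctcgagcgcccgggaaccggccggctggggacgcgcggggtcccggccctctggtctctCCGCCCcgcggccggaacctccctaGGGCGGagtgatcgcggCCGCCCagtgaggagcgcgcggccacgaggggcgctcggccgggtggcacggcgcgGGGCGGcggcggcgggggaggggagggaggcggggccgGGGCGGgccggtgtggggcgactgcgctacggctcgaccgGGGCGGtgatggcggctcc
Rcor2: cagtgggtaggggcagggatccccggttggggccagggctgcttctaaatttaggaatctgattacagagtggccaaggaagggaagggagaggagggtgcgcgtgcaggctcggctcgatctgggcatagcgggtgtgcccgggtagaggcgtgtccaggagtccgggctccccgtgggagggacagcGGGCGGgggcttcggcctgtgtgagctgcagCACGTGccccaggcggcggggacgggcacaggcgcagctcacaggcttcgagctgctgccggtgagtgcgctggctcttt
The Rcor3 promoter had 81.7% G and C, 47 CpG dinucleotides and 7 GC boxes. The Rcor2 promoter had 67.3% G and C, 21 CpG dinucleotides, 1 GC box and 1 E-box, which begins at position −30 from the start site. Over 32851 mouse promoters of this length the medians were 52.7% G and C and 7 CpG dinucleotides. A GC box occurred in 35.7% of them and the E-box in 7.2%. The MYB core (TAACNG), the CCAAT box (CCAAT) and the TATA box (TATAAA), searched on both strands like the others, were in neither window. They occurred in 23.3%, 37.4% and 13.6% of all promoters. These matches describe letters in the window and not binding. RefSeq promoters were matched for 9 of the 10 genes. In the Mta1 promoter G and C made up 81.0%, and the KO minus Het difference in spermatocytes was −0.02. These values were 78.7% and −0.69 for Mier3, 69.3% and −0.47 for Rcor1, and 65.7% and 0.15 for Rere. They were 65.3% and 0.495 for Mier2 and 61.7% and 0.04 for Mta2. Mier1 rose by 0.56 and had windows of 43.7% and 78.0%. Of these genes only Mier1 and Mier2 passed the test.

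Rcor3 (ENSMUSG00000037395.15, chromosome 1, 192098546 to 192138062, minus strand) encodes a CoREST paralogue that binds KDM1A and has been reported to limit its activity. In P18 spermatocytes its level was 5.16, 4.32 and 10.7 in the Het libraries and 0.76, 0.848 and 1.18 in the KO libraries, from 591 to 2241 reads against 126 to 219. The groups did not overlap, and the highest KO library lay well under the lowest Het library. The difference was −2.25 ± 0.32 (4.75-fold lower on the log2(level + 0.5) scale, limma adjusted p = 0.00307, n = 3 and 3), and the group means themselves, 6.73 ± 3.47 and 0.931 ± 0.224 (SD), differed 7.23-fold. The highest Het value came from replicate 3, the library that stood apart; without it the difference was −1.88 (adjusted p = 0.0007), and the call held when any of the 6 libraries was left out.

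In whole testis at P18, Rcor3 stood at 5.13, 4.07 and 3.08 in Het and 2.27, 2.09 and 2.15 in KO. The KO libraries lay close together and below the spread-out Het libraries. The fall was by 0.76 ± 0.17 on the log2 scale (1.69-fold, limma adjusted p = 0.0266), but it no longer passed without Het replicate 2 or without any of the 3 KO replicates (adjusted p up to 0.09, with differences from −0.93 to −0.60 over the 6 libraries left out), nor without the filter on low values (adjusted p = 0.0558). At P14 the Het libraries held 2.55, 2.62 and 2.83 and the KO libraries 2.57, 2.47 and 2.64, which overlapped (−0.05 ± 0.08, adjusted p = 0.892). In Het testis Rcor3 rose between P14 and P18 by 0.51 ± 0.14 (adjusted p = 0.00655), whereas the P18 KO mean of 2.17 lay under both P14 means; this last order was not tested. The ranking of groups ran from Het spermatocytes through P18 Het testis, P14 Het testis, P14 KO testis and P18 KO testis to KO spermatocytes, with overlap between the first and the second and between the third and the fourth.

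At P18 pachytene markers moved with Rcor3: 11 of 12 fell in KO spermatocytes and 12 of 12 in KO testis. The shares of all genes lower there were 18.9% and 17.8%. Het spermatocyte replicate 3 was highest in both Rcor3 and the pachytene sum. At P14 the 12 markers summed to between 112 and 150 in Het and between 49.4 and 74.9 in KO testis. Only 6 of them reached the level required for testing, and 2 were called lower, beside 0.167% of all genes. The means of 5 markers in Het and 8 in KO were under 1, and Hspa2 alone had means of 72.3 and 40.2. Rcor3 overlapped between these groups (−0.05 ± 0.08, limma adjusted p = 0.892). The part of cell composition in the Rcor3 difference was not tested. Reads of Rcor3 also cannot be told apart with certainty from those of overlapping genes on the other strand, since whether reads were counted by strand is not given in the sources used here and 7.16% of its 50-base windows occur in other annotated genes. Of these overlapping genes, Gm26879 had a mean of 9.85 in Het and 2.10 in KO spermatocytes, and Gm10516 had 3.07 and 0.585. The remaining overlapping gene, Gm37055, did not fall there (0.413 and 0.434), with the lowest library at 0 in both groups.

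Rcor2 (ENSMUSG00000024968.14, chromosome 19, 7267325 to 7275225, plus strand) encodes the CoREST paralogue known from embryonic stem cells and neural progenitors, where it partners KDM1A. Its level in P18 spermatocytes was 22.0, 22.0 and 18.1 in Het and 34.9, 41.5 and 38.6 in KO. All 3 KO libraries exceeded all 3 Het libraries, and the lowest Het value was that of replicate 3. Rcor2 rose from 20.7 ± 2.26 to 38.3 ± 3.3 (SD), a difference of 0.87 ± 0.12 (1.83-fold, limma adjusted p = 0.00281), and the call held without any single library.

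Outside the spermatocytes the Rcor2 differences were smaller. P14 testis held 11.2, 11.2 and 8.76 in Het and 11.8, 11.9 and 13.5 in KO, groups that did not overlap (0.25 ± 0.11, adjusted p = 0.548). P18 testis held 6.31, 8.62 and 9.04 in Het and 8.49, 10.2 and 10.1 in KO, groups that overlapped (0.26 ± 0.15, adjusted p = 0.238). KO means were thus higher in all 3 sets, but the difference passed the test in spermatocytes and in neither testis set. Spermatogonial markers moved the same way as Rcor2, Mier1 and Mier2: 9 of 12 rose in KO spermatocytes and 4 of the 11 tested rose in P18 KO testis, with none falling in either. Of all genes, 18.4% and 5.19% rose in these comparisons. The part of spermatogonia in the differences of Rcor2, Mier1 and Mier2 was not tested.

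Rcor1 (ENSMUSG00000037896.17, chromosome 12, 111039351 to 111115901), the founding CoREST gene, held 16.0, 12.9 and 20.3 in Het and 10.3, 10.8 and 13.7 in KO spermatocytes. The groups overlapped by 1 pair of libraries. Its difference of −0.47 ± 0.19 did not pass (adjusted p = 0.0901), and it was −0.31 (adjusted p = 0.172) without Het replicate 3 but passed without Het replicate 2 (adjusted p = 0.0347). It also passed with values as deposited (−0.38, adjusted p = 0.0391) and with all 18 libraries in 1 fit (adjusted p = 0.0061). In whole testis Rcor1 lay between 15.3 and 17.4 in all 12 libraries. The KO means were below the Het means at both ages, by 0.09 ± 0.05 and 0.12 ± 0.05, neither past the test (adjusted p = 0.628 and 0.127).

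As a result the make-up of the summed RCOR level differed between groups. In Het spermatocytes Rcor2 made up 48.0% ± 9.93 (SD), Rcor1 37.1% ± 4.16 and Rcor3 14.9% ± 5.99 of a sum of 43.8. In KO spermatocytes the shares were 75.4% ± 3.02, 22.8% ± 2.70 and 1.82% ± 0.34 of a sum of 50.9. Rcor1 was the most abundant RCOR gene in whole testis of both ages and genotypes, with 51.4% to 58.4% of the sum. These shares describe RNA per exon length and were not tested.

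**Figure D2:**
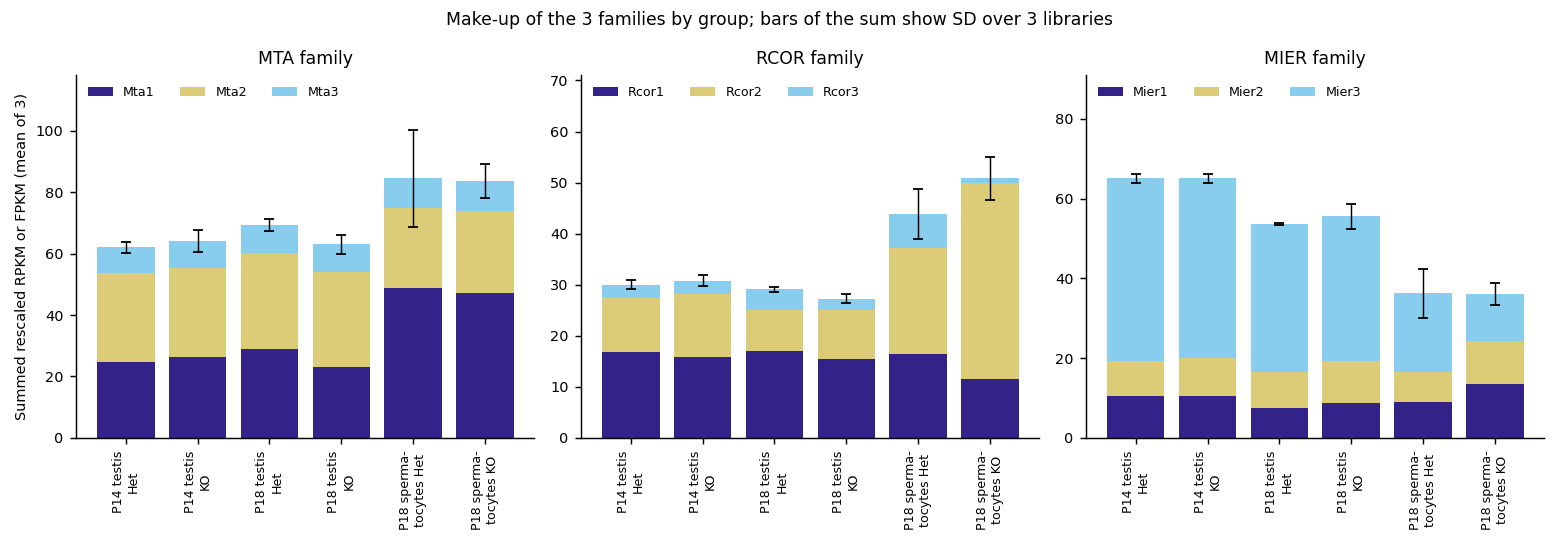
Summed level of the MTA, RCOR and MIER families (rescaled RPKM or FPKM, linear axes from 0) in the 6 groups, stacked by paralogue as means over 3 libraries; error lines are the SD of the sum. Rcor2 makes up 48.0% of the RCOR stack in Het and 75.4% in KO spermatocytes, and Mier3 makes up 70.5% of the MIER stack in P14 Het testis and 32.5% in KO spermatocytes.

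The MIER genes, which encode scaffolds named for a mesoderm-induction early response in frog embryos, also split. Mier1 (ENSMUSG00000028522.16, chromosome 4, 103114390 to 103165754) stood at 9.35, 8.75 and 9.04 in Het and 12.9, 13.9 and 14.1 in KO spermatocytes. The replicates lay close together within each genotype, and the groups were far apart. It rose by 0.56 ± 0.10 (1.48-fold, limma adjusted p = 0.00549), and the call held without any single library. In P18 testis the Het libraries held 7.38, 7.83 and 7.22 and the KO libraries 9.23, 8.75 and 8.31. Here too the groups did not overlap, but the difference of 0.22 ± 0.07 missed the threshold (adjusted p = 0.0658), which it passed with values as deposited (adjusted p = 0.0265), with median-of-ratios scaling (0.0211), with all 18 libraries in 1 fit (0.0192) and with voom (0.0319).

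Mier1 shares exon sequence with Wdr78 on the other strand, whose mean was 8.42 in Het and 2.25 in KO spermatocytes, opposite in direction to Mier1. At P14 Mier1 levels were 10.3, 10.2 and 11 in Het and 10.2, 10.5 and 10.6 in KO and overlapped (−0.01 ± 0.05, adjusted p = 0.972). In Het testis Mier1 fell from P14 to P18 by 0.46 ± 0.06 (adjusted p = 2.87e-05), the clearest age difference of the 10 genes by its adjusted p.

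Mier2 (ENSMUSG00000042570.14, chromosome 10, 79540245 to 79555199) held 7.53, 7.42 and 7.44 in Het and 9.99, 10.8 and 11.4 in KO spermatocytes. The Het libraries were nearly equal, and every KO library was higher. The rise of 0.50 ± 0.10 (1.41-fold, adjusted p = 0.0102) no longer passed without KO replicate 2 or KO replicate 3 (adjusted p = 0.0515 and 0.0589). In P18 testis the levels were 8.10, 9.48 and 9.90 in Het and 9.99, 11.9 and 9.51 in KO, and at P14 they were 8.69, 9.58 and 7.73 against 9.25, 9.71 and 9.84. Both pairs of groups overlapped, and neither difference passed (0.18 ± 0.11, adjusted p = 0.271; 0.15 ± 0.08, adjusted p = 0.625).

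Mier3 (ENSMUSG00000032727.14, chromosome 13, 111680979 to 111718596) was the most abundant MIER transcript in whole testis. It stood at 45.4, 44.7 and 47.6 in P14 Het, 45.5, 46.1 and 43.7 in P14 KO, 38.4, 36.2 and 36.5 in P18 Het and 38.0, 36.8 and 34.2 in P18 KO testis. Genotypes overlapped at both ages, with differences of −0.03 ± 0.05 and −0.03 ± 0.06 (adjusted p = 0.906 and 0.755). In spermatocytes it stood at 19.6, 13.8 and 25.8 in Het and 10.1, 12.1 and 13.2 in KO. These groups did not overlap, though the lowest Het library and the highest KO library were close. The difference of −0.69 ± 0.23 missed the threshold (1.61-fold lower, adjusted p = 0.0512); without Het replicate 3 it was −0.48 (adjusted p = 0.0822) and without Het replicate 2 it passed (−0.91, adjusted p = 0.0121). It also passed with values as deposited (adjusted p = 0.0175), median-of-ratios scaling (0.0434), all 18 libraries in 1 fit (0.00203) and voom (0.0369).

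The summed MIER level was 36.3 ± 6.15 in Het and 36.1 ± 2.86 (SD) in KO spermatocytes, while the Mier3 share was 53.6% ± 7.47 and 32.5% ± 1.83. In whole testis the Mier3 share lay between 65.4% and 70.5% in the 4 groups. The Mier1 share was 25.4% ± 3.91 in Het and 37.8% ± 1.41 in KO spermatocytes.

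**Figure D3:**
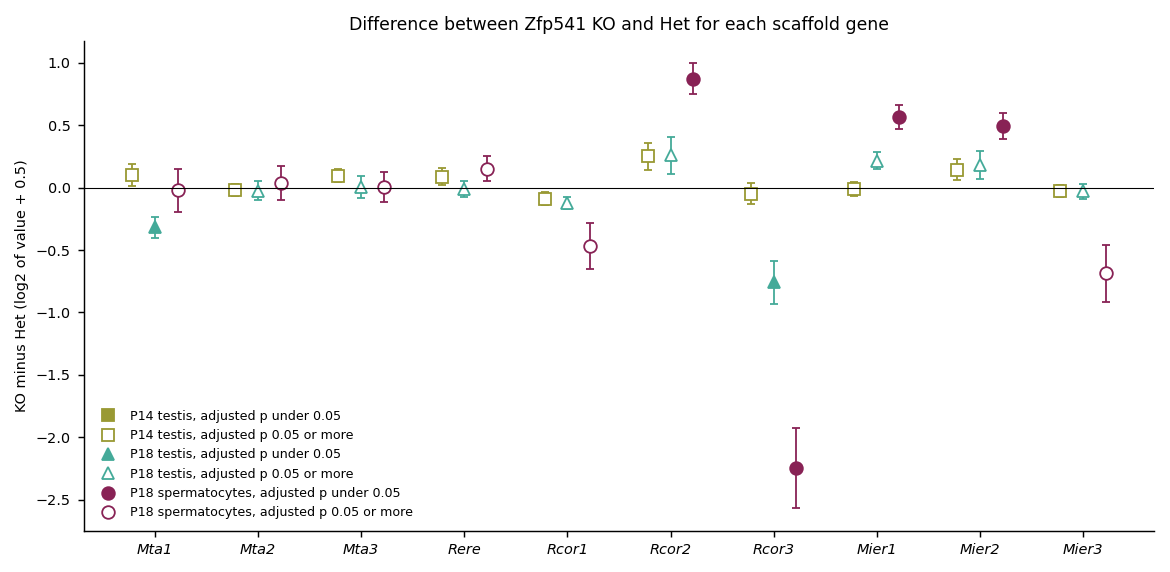
KO minus Het difference in log2(level + 0.5) ± standard error for each scaffold gene in P14 testis, P18 testis and P18 spermatocytes (limma, 3 libraries against 3 in each); filled symbols mark genes with an adjusted p under 0.05. Rcor3 is at −2.25 and Rcor2 at 0.87 in spermatocytes, and the 3 Mta genes lie within 0.04 of 0 there.

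The MTA genes, whose products hold the deacetylase in NuRD, differed little between genotypes. Mta1 (ENSMUSG00000021144.14, chromosome 12, 113098278 to 113137206) stood at 31.3, 27.6 and 27.6 in Het and 21.0, 24.7 and 23.3 in KO P18 testis, without overlap. The fall of 0.32 ± 0.09 on the log2 scale (1.25-fold, adjusted p = 0.0415) was near the threshold and was lost whenever 1 of the 6 libraries was left out (adjusted p = 0.0504 to 0.111). It was also lost without the filter (adjusted p = 0.0816), with values as deposited (0.0858), with median-of-ratios scaling (0.0891) and with all 18 libraries in 1 fit (0.1). In spermatocytes Mta1 held 45.4, 39.7 and 61.3 in Het and 44, 47.1 and 50.9 in KO, with the KO libraries inside the Het range (−0.02 ± 0.17, adjusted p = 0.935). At P14 it held 24.0, 26.8 and 23.1 in Het and 25.9, 24.1 and 29.3 in KO (0.10 ± 0.09, adjusted p = 0.766).

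Mta2 (ENSMUSG00000071646.9, chromosome 19, 8941875 to 8952303), the MTA subunit found with NuRD in most tissues, lay between 23.2 and 34.6 in all 18 libraries. Its KO minus Het differences were −0.02 ± 0.05 (P14 testis), −0.03 ± 0.08 (P18 testis) and 0.04 ± 0.13 (spermatocytes) (adjusted p = 0.943, 0.821 and 0.851). Mta3 (ENSMUSG00000055817.18, chromosome 17, 83706163 to 83821516), known for a NuRD form described in B cells and breast epithelium, lay between 8.08 and 10.9. Its group means ranged from 8.32 to 9.66, the narrowest relative range of the 10 genes (1.16-fold). Its differences were 0.10 ± 0.05, 0.00 ± 0.09 and 0.00 ± 0.12 (adjusted p = 0.597, 0.984 and 0.988). At P14 its groups did not overlap, as was also the case for Rcor2 and, by less than the digits printed, Rcor1; these 3 of 10 genes stand beside 16.4% of all genes tested.

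Rere (ENSMUSG00000039852.17, chromosome 4, 150281646 to 150621966), the longest of the 10 loci, held 28.1, 24.5 and 27.0 in Het and 29.3, 28.7 and 30.5 in KO spermatocytes. Every KO library was above every Het library, by a difference of 0.15 ± 0.10 that did not pass (adjusted p = 0.276). In P18 testis the levels were 21.0, 20.6 and 21.7 against 19.8, 22.1 and 21.1, and at P14 23.9, 26.2 and 23.5 against 26.0, 24.6 and 27.7. The genotypes overlapped in both (−0.01 ± 0.06, adjusted p = 0.909; 0.09 ± 0.07, adjusted p = 0.716). Groups without overlap were found for 6 of the 10 genes in spermatocytes, beside 54.6% of all genes, and for 4 of the 10 in P18 testis, beside 48.0%.

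Whether the genotype difference in spermatocytes differed from that in whole testis at P18 was tested as an interaction over 12 libraries. No scaffold gene passed, in a comparison where 0.0761% of 19702 genes passed with limma (0.00508% higher and 0.0711% lower) and 3589 had an unadjusted p under 0.05. The values were −1.49 ± 0.40 for Rcor3 (limma adjusted p = 0.119), 0.61 ± 0.20 for Rcor2 (adjusted p = 0.152), 0.35 ± 0.10 for Mier1 (adjusted p = 0.135) and −0.66 ± 0.26 for Mier3 (adjusted p = 0.214). With all 18 libraries in 1 fit, Rcor3 and Mier1 passed (adjusted p = 0.0281 and 0.0329); with values as deposited, Rcor3 did (adjusted p = 0.0488); voom called none. A call in spermatocytes without one in testis is therefore not shown to be a difference between them.

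Spermatocytes were also compared with whole testis between the P18 Het groups. The fit held all 12 P18 libraries, so the KO libraries also entered the estimate of spread. In this comparison 9 of 12 spermatogonial markers were higher and 1 lower, and 4 of 12 pachytene markers were higher. None of the 6 myoid markers was called, and all 12 Sertoli and all 7 Leydig markers were lower. The differences below are thus between the isolated fraction and whole testis. The part of each cell type in them was not tested. Rcor2 had the largest difference: it was 2.52-fold higher in spermatocytes (1.33 ± 0.14, limma adjusted p = 1.34e-05). Mta1 was 1.66-fold higher (0.73 ± 0.14, adjusted p = 0.0012), and Mier3 was 1.91-fold lower (−0.93 ± 0.18, adjusted p = 0.00125). Rere and Mier1 were higher by smaller amounts (0.32 ± 0.07 and 0.26 ± 0.07, adjusted p = 0.00352 and 0.00969), and the Mier1 call ended with values as deposited (0.14, adjusted p = 0.189). Mier2 and Mta2 were lower (−0.27 ± 0.10 and −0.27 ± 0.11, adjusted p = 0.039 and 0.0497), but these calls ended in 7 and 9 of 12 fits that left out 1 library. Rcor3, Rcor1 and Mta3 did not pass (0.58 ± 0.28, −0.07 ± 0.14 and 0.08 ± 0.10, with adjusted p = 0.102, 0.702 and 0.513).

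The 7 of 10 scaffold genes called here, 4 higher and 3 lower, stand beside 56.8% of 19702 genes (23.8% higher and 32.9% lower). Het libraries of the 2 fractions did not overlap for 6 of the 10, beside 58.0% of genes. Within the MTA family, Mta1 made up 41.5% ± 2.83 of the summed level in Het testis and 57.4% ± 2.28 (SD) in Het spermatocytes. Spermatocyte values were deposited as RPKM and P18 testis values as FPKM, so the fraction and the unit cannot be told apart in this comparison.

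Between P14 and P18 in Het testis, 5 of 10 genes were called, 1 higher and 4 lower, beside 64.2% of 17855 genes (30.9% higher and 33.2% lower). The ages did not overlap for 7 of the 10, beside 68.6% of genes. Besides Rcor3 and Mier1, Mier3 fell by 0.31 ± 0.05 (limma adjusted p = 0.000318), Rere fell by 0.21 ± 0.06 (adjusted p = 0.0129) and Rcor2 fell by 0.37 ± 0.14 (adjusted p = 0.0373). The Rcor2 call ended without P14 Het replicate 1, P14 Het replicate 2 or P18 Het replicate 1, and the Rere call without P14 Het replicate 2. With values as deposited Rcor2 (adjusted p = 0.191) and Rere (adjusted p = 0.349) no longer passed, and with all 18 libraries in 1 fit Rcor3 (adjusted p = 0.0804) and Mier3 (adjusted p = 0.102) did not. Values as deposited gave 5 genes higher and 2 lower, since Mta1 (adjusted p = 0.00329), Mta2 (adjusted p = 0.0173), Mta3 (adjusted p = 0.00814) and Rcor1 (adjusted p = 0.0267) then passed as higher; the median of all genes moved from 0.007 to 0.135. After rescaling, Mta1 was higher at P18 by 0.22 ± 0.09 without passing (adjusted p = 0.0507), and Mta2, Mta3, Mier2 and Rcor1 differed by 0.11, 0.12, 0.08 and 0.01 (adjusted p = 0.135 to 0.892). P14 values were deposited as RPKM and P18 testis values as FPKM, so age and unit cannot be told apart, and the P18 Het testis libraries also enter the genotype and fraction comparisons. The gene list differed with age as well, with 49585 rows at P14 and 55401 at P18. Gm48632, whose exons overlap those of Rcor1 on the same strand, had no value at P14 and a mean of 1.85 in P18 Het testis. The part of this difference in the Rcor1 values was not tested.

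The other subunits of the complexes were counted from lists of known partners. Of 12 NuRD partners, 6 rose and none fell in KO spermatocytes (median difference 0.48), against 18.4% of all genes rising. Hdac2, one of the deacetylase genes, rose from 31.3 to 47.9 (0.60 ± 0.10, limma adjusted p = 0.00399). Hdac1, the other, stood at 34.8 in Het and 37.3 in KO and did not pass (0.11 ± 0.15, adjusted p = 0.576). Gatad2b rose from 12.4 to 18.1, the histone-binding gene Rbbp7 from 48.4 to 69.6 and the remodeller gene Chd3 from 43.4 to 61.5. Their differences were 0.53 ± 0.11, 0.52 ± 0.10 and 0.50 ± 0.11. In P18 KO testis Rbbp7 rose (0.34 ± 0.06, adjusted p = 0.0121), while Mbd3 and Hdac1 fell (by 0.43 ± 0.09 and 0.31 ± 0.07, adjusted p = 0.0238 and 0.0293). These 3 of 12 stand near the 23.0% of all genes called there.

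Of the 10 CoREST partners tested among 12 listed, 4 rose and none fell in KO spermatocytes (median 0.20), beside 18.4% of all genes rising. The 4 of 10 called is near the 37.3% of all genes called in either direction. Rest, the transcription factor that brings CoREST to neuronal genes, rose from 14.5 to 21.9 (0.58 ± 0.11, adjusted p = 0.00701). The zinc-finger gene Zmym3 rose from 15.5 to 22.1, the corepressor gene Ctbp1 from 17.9 to 25.0, and Gse1 from 9.16 to 12.1 (adjusted p = 0.0408, 0.0221 and 0.0311). In P18 testis Zmym3 alone of the 10 was called (0.28 ± 0.07, adjusted p = 0.0409), beside 23.0% of all genes called and 5.19% rising. Gfi1 and Gfi1b did not reach the level required for testing.

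Of 6 MIER and RERE partners, 5 rose and none fell in KO spermatocytes (median 0.50), beside the same 18.4% of all genes. Ehmt1, a histone H3K9 methyltransferase, rose from 10.7 to 19.7 (0.85 ± 0.10, adjusted p = 0.00145), and Cdyl, a chromodomain corepressor, from 6.65 to 12.2 (0.83 ± 0.11, adjusted p = 0.00192). Atn1, which encodes the atrophin related to RERE, rose from 16.0 to 24.3, and Ehmt2, the partner methyltransferase of Ehmt1, from 60.3 to 80.6 (adjusted p = 0.0188 and 0.0277). Ehmt1 was the single member of the 6 called in P18 testis (0.35 ± 0.09, adjusted p = 0.0388), beside 5.19% of all genes rising. No partner of any of these lists was called at P14.

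Without Het replicate 3 the counts of partners higher in KO spermatocytes were 6 for NuRD, 3 for CoREST and 5 for MIER and RERE. With all 18 libraries in 1 fit they were 9, 5 and 5, and Mbd3 of NuRD and Ctbp2 of CoREST were called lower. Without Het replicate 2 they were 6, 3 and 5, and Mbd3 and the CoREST partner Zmym2 were called lower. They were most sensitive to the KO libraries: without KO replicate 2 they were 3, 1 and 2, and without KO replicate 3 they were 1, 1 and 2. Leaving out KO replicate 1 gave 5, 2 and 3, and leaving out Het replicate 1 gave 7, 2 and 2. Without the filter on low values they were 5, 1 and 3. Hdac2, Rest, Ehmt1 and Cdyl stayed called in spermatocytes in all 14 other fits run. Each partner call in P18 testis ended in at least 2 of its 14 other fits (adjusted p up to 0.133). The spermatogonial markers given above rose in the same KO spermatocyte libraries, and their part in the partner counts was not tested.

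**Figure D4:**
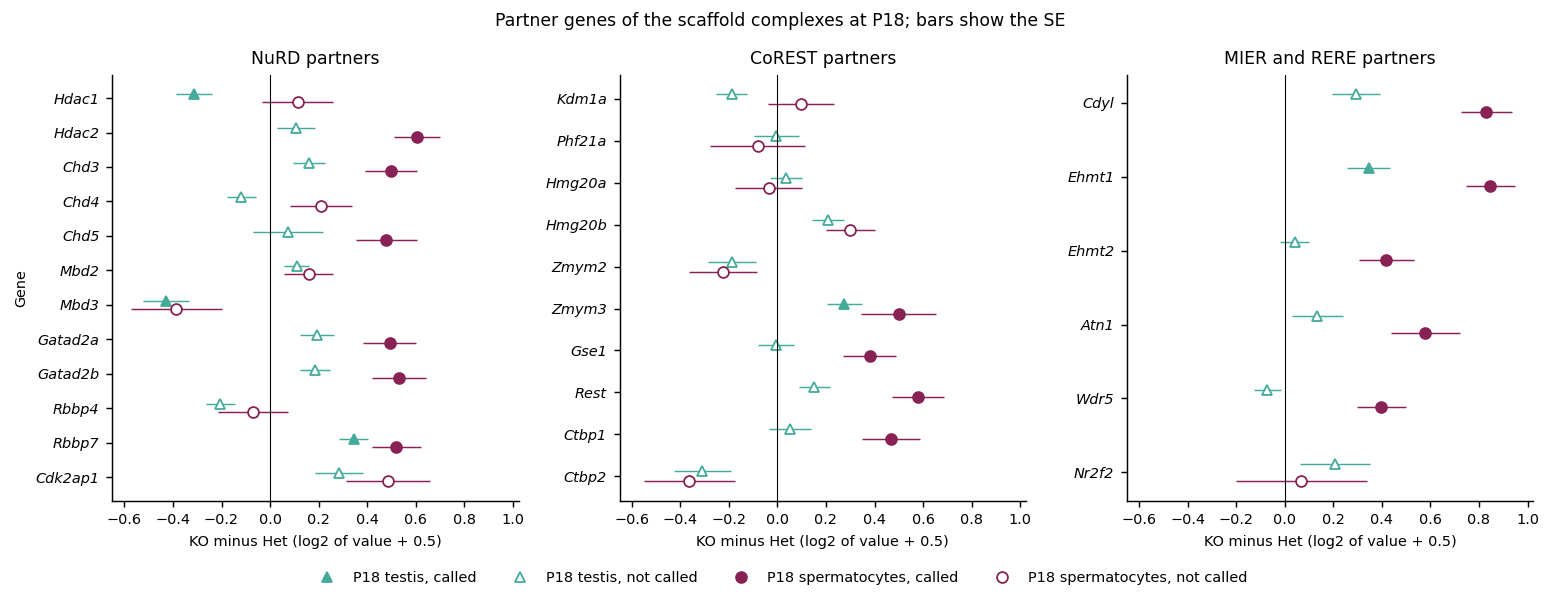
KO minus Het difference in log2(level + 0.5) ± standard error of the tested partner genes of NuRD, CoREST and the MIER and RERE complexes in P18 testis and P18 spermatocytes (limma, 3 libraries against 3); filled symbols mark an adjusted p under 0.05. In spermatocytes 6 of 12, 4 of 10 and 5 of 6 partners pass, all of them higher in KO. Of all genes, 37.3% pass there and 18.4% are higher. Without KO replicate 3 the partner counts are 1, 1 and 2.

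Of 5 genes of the complexes in which ZFP541 itself or its nearest relatives take part, 1 rose and 2 fell in each P18 set, and 1 of the 2 that fell was the mutated gene Zfp541 itself. The share of all genes called was 23.0% in testis and 37.3% in spermatocytes. Trerf1, another ELM2-SANT gene, rose from 4.83 to 9.43 in KO spermatocytes (0.89 ± 0.12, adjusted p = 0.00235), and Kctd19, whose product binds ZFP541, fell from 108 to 31.2. Beside Zfp541, these were the members called.

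Each scaffold gene was last compared in shape with 16212 genes of mean level at least 1, by the root mean square difference of centred log2(level + 0.5) over the 18 libraries. Nearest to Rcor3 were Nudt4 (0.133) and Sox6 (0.135), against a spread of Rcor3 about its own mean of 0.734; Sox6 had a mean of 5.66 in Het and 0.727 in KO spermatocytes. Nearest to Rcor2 were Galnt12 (0.097) and Evpl (0.106), against a spread of 0.767, and Galnt12 stood at 10.8 and 20.1 in the same groups. Mier1 lay nearest to Sp3 (0.05) and Naa50 (0.071), and Mier3 to Exo5 (0.142) and Zfp251 (0.149). For Mta1 the nearest genes were Zfp217 (0.086) and Psmd2 (0.092), for Rcor1 Gab2 (0.071) and Jazf1 (0.099), and for Mier2 Dvl3 and Rbfa (0.069 each). Mta2, Mta3 and Rere lay nearest to G3bp1 (0.068) and Znrf1 (0.083), to Taf10 (0.07) and Hsd17b4 (0.074), and to Rbm4 (0.073) and Eri1 (0.081). Spreads about their own means were small for Mta3 (0.103), Mta2 (0.134), Rere (0.184) and Mier2 (0.19), so short distances say less for these genes. The spreads were 0.224 for Rcor1, 0.261 for Mier1, 0.449 for Mta1 and 0.727 for Mier3.

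No scaffold gene was among the 2 nearest genes of another. The scaffold nearest to Rcor3 was Rcor1, at 0.577 and with 913 genes nearer, and the scaffold nearest to Rcor2 was Mta1, at 0.487 with 1343 genes nearer. The closest pair was Mier1 and Rere at 0.165, with 479 genes nearer to Mier1. Their spreads about their own means were 0.261 and 0.184. The libraries share depth and cell make-up within a group, so these distances describe the 18 libraries and carry no test.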

How the data were processed

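Poly(A) RNA of 18 libraries in 6 groups was analysed. The authors deposited RPKM values per gene for P14 testis and P18 spermatocytes, per the file headers and values. The authors deposited FPKM values for P18 testis. The submitters' processing notes list the build GRCm38 and, as tools, featureCounts, STAR 2.6.1a, edgeR 3.28.1 and CASAVA 1.9; what each did, and any strand setting, is not given in the sources used here. No batch is labelled.

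The deposited values hold no counts. Multiplied by merged exon length (GRCm38 annotation), low values fell on whole multiples of 1 read, within 0.02 reads, for 93.71% to 99.24% of values, which gave depths of 17.96 to 21.12 (P14), 12.81 to 16.95 (P18 testis) and 9.26 to 18.31 (spermatocytes) M reads (megareads). These reads served to compute trimmed-mean (TMM) factors (30% and 5% trims) and 1 alternative. Intervals for counting error were not computed.

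Rescaled values of at least 1 in at least 3 libraries of a fit were tested with limma 3.58.1 (R 4.3.3) on log2(value + 0.5), with intensity trend and robust moderation, two-sided, Benjamini-Hochberg adjusted over all genes tested, in 6 comparisons. The age comparison used genes of equal length in both sets. The age and fraction contrasts were between Het groups, but their fits also held the KO libraries of the same sets. Fold changes on this scale understate those of low genes. The fits were also run on simulated data, whose outcome is not given here and on which no result above rests.

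Members and gene lists were chosen with earlier results of these data known. Named genes were the 10 members, Zfp541, up to 4 called partners per list and comparison with the largest change, and the 2 genes nearest each member. Alternatives were pseudocounts of 0.1 and 1, no filter, values as deposited, median-of-ratios scaling, all 18 libraries in 1 fit, a replicate block and leaving out each library; voom on reads read back was added after seeing the data. Figures were drawn with matplotlib 3.10.9.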

Additional observations from a re-analysis of the deposited data

How the results depend on the processing

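The directions and calls of Rcor2, Rcor3 and Mier1 in spermatocytes held under all 8 alternatives and without each of the 6 libraries. Precision was limited by 3 libraries a group. All-gene counts in P14 testis (2 higher, 30 lower) were 1 and 17 with a pseudocount of 0.1, 4 higher with a pseudocount of 1, 3 and 6 without the filter, 1 higher with all 18 libraries in 1 fit, 5 and 200 with voom (added after seeing the data), and 0 to 4 higher and 0 to 127 lower when 1 library was left out. In P18 testis (953 higher, 3273 lower) they were 319 and 2635 without the filter, 2473 and 2860 as deposited, 2916 and 2773 with median-of-ratios scaling and 1650 higher with voom, and 69 to 1312 and 1006 to 3052 when 1 library was left out; these 2 scalings moved the median of all genes from 0.01 to 0.12 and 0.11. In spermatocytes (2930 higher, 3019 lower) they were 1822 higher without the filter, 4675 higher with all 18 libraries, and 1097 to 2532 and 1568 to 2899 when 1 library was left out. For the interaction (1 higher, 14 lower) they were 17 and 57 with a pseudocount of 0.1, 7 and 20 without the filter, 58 and 232 as deposited, 31 lower with median of ratios, 584 and 295 with all 18 libraries, 5 and 43 with voom, and 0 to 21 and 0 to 78 when 1 library was left out. For age (5521 higher, 5933 lower), values as deposited gave 6780 and 4493. The cause of these changes was not tested.

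Of the 10 genes, the 2 lower in P18 testis were 0 without the filter, 1 as deposited, with median of ratios and with all 18 libraries, and 0 to 1 when 1 library was left out; 1 (Mier1) was higher as deposited, with median of ratios, with all 18 libraries and with voom. The 1 lower in spermatocytes became 3 as deposited and with all 18 libraries, 2 with median of ratios and voom, and 1 to 3 when 1 library was left out. For the interaction, 1 was lower as deposited, and 1 lower and 1 higher with all 18 libraries. The 3 lower in spermatocytes than in testis were 1 without the filter and with median of ratios, and 1 to 3 when 1 library was left out. For age, the 1 higher became 5 as deposited, 0 with all 18 libraries, 2 with voom and up to 2 when 1 library was left out, and the 4 lower became 2 as deposited and as few as 2 when 1 library was left out.

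Signs that turned were all of differences that did not pass. At P14, leaving out 1 library gave −0.0438 to 0.0141 for Mta2, −0.0324 to 0.0231 for Mier1 and −0.0434 to 0.0013 for Mier3. In P18 testis, Mta2, Mier3 and Rere were 0.095, 0.0934 and 0.109 as deposited, 0.0838, 0.0822 and 0.0983 with median of ratios, and −0.0711 to 0.0412, −0.0611 to 0.0138 and −0.049 to 0.0303 when 1 library was left out, when Mta3 was −0.0459 to 0.0829. In spermatocytes, Mta1 was 0.0663 as deposited and −0.156 to 0.154 without 1 library, Mta3 −0.000621 with voom and −0.083 to 0.0866 without 1 library, and Mta2 −0.0434 to 0.14 without 1 library. For the interaction, Mta3 was 0.000412 with a pseudocount of 0.1 and −0.0861 to 0.0835 without 1 library, and Mta2 −0.0412 with median of ratios and −0.0169 to 0.167 without 1 library. Between fractions, Mta3 was −0.0353 as deposited and −0.00282 to 0.167 without 1 library, and Rcor1 0.0557 with median of ratios and −0.23 to 0.0837 without 1 library. For age, Rcor1 was −0.0942 with median of ratios and −0.0153 to 0.0301 without 1 library, and Mier2 −0.0224 with median of ratios.

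Whether replicate numbers pair the samples is not given in the labels and is not settled here. Same-numbered libraries of the 2 genotypes correlated at 0.08 to 0.1 at P14, 0.05 to 0.23 in spermatocytes and −0.03 to 0.02 in P18 testis. At P14 and in spermatocytes 3 of the 3 numbers correlated best with their own, and in P18 testis 1 of 3 did. With the replicate number as a block, the counts were 0 higher and 18 lower genes at P14, 395 higher in P18 testis, 27 lower for the interaction and 3056 higher (from 4695) in spermatocytes against testis; of the 10 genes, 1 was lower in P18 testis, 3 in spermatocytes and 1 in spermatocytes against testis, and Mier2 with age was −0.0135. Calls that ended under the block were those of Mta1 in P18 testis (−0.318, adjusted p = 0.106), of Mta2 (−0.331, adjusted p = 0.106), Mier1 (0.22, adjusted p = 0.15) and Mier2 (−0.205, adjusted p = 0.277) between fractions, and of Rere with age (−0.235, adjusted p = 0.0965). In spermatocytes Rcor1 (adjusted p = 0.028) and Mier3 (adjusted p = 0.0306) passed under it.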
